A study of Mus musculus with 6 samples.

Results

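The genes described here are the Kcn potassium channel genes of the mouse, apart from the inward rectifier (Kcnj) group. Members were all probe sets annotated to 1 symbol alone that starts with Kcn and not with Kcnj. There were 136 such probe sets for 69 genes, of 34945 probe sets and 18193 genes with 1 symbol in the whole series. By the RefSeq annotation 66 of the 69 genes code for protein and 3 are non-coding RNAs, and counts of channel genes below leave the 3 out. A gene stands here by the probe set with its highest mean log2 intensity over the arrays, with its other probe sets as a check.

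The RNA came from the cortex of mice of the S100a10 bacTRAP line ES691, in which cells that use the S100a10 control region carry a tagged ribosomal protein, so that their ribosomes and the RNA bound to them can be pulled out of the tissue (TRAP). All 6 samples share this transgene and an FVB origin backcrossed to C57BL/6 over 3 to 5 generations. The fluoxetine group (3 arrays) drank fluoxetine, a serotonin reuptake inhibitor, at 0.167 mg/ml in 1% saccharine for 15 to 18 days, and the vehicle group (3 arrays) drank 1% saccharine alone. The labels call the samples biological replicates and give no age, sex or number of animals per sample, so p-values measure the spread between these samples. Values are log2 intensities normalized with GCRMA by the authors. A difference is fluoxetine minus vehicle in log2, and ± after a difference is its standard error. Precision is limited by there being 3 arrays in each group.

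Potassium channels let potassium leave the cell and so bring a neuron back towards rest. Voltage-gated (Kv) channels open on depolarisation and are built from pore-forming subunits that assemble in fours; the subfamily sets how fast the channel opens and inactivates, and auxiliary subunits (Kv beta, KChIP, Kcne) alter its traffic and gating. Kv7 channels carry the M-current, tandem-pore (K2P) channels the resting leak, and BK and SK channels respond to calcium. In cortical pyramidal neurons these channels are known to shape spike width, repetitive firing and the response of dendrites.

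The labels name S100a10 cells of the cortex. S100a10 itself averaged 15.12 on its brightest probe set, at 14.98 to 15.22 over the 6 arrays, and 11.98 on the next (differences −0.07 ± 0.11 and −0.20 ± 0.15), while a further one lay below an intensity of 50. Markers of the cell types that cortex RNA can hold were read beside it. All 6 pyramidal neuron markers with a probe set of 1 symbol were above an intensity of 50, with Neurod6 at 12.26 to 12.71 and Bcl11b at 10.63 to 10.84 over the 6 arrays. All 7 inhibitory neuron markers were above it too, Gad1 at 13.65 to 14.05, as were all 7 astrocyte markers. Of these, Gfap passed only through fluoxetine 1 and 3 (12.13 and 9.02, against 4.49 to 5.67 on the other arrays), while Gja1 read 14.45 to 14.77. The purified RNA was thus not of pyramidal neurons alone. Of 5 endothelial markers, Pecam1 (2.32 to 2.43) and Tek (2.98 to 3.56) were below the level, and Cldn5, Flt1 and Esam above it. Cldn5 (5.40 to 5.98) and Flt1 (5.46 to 6.10) were near it. Cldn5 was below it on fluoxetine 1, and Flt1 on fluoxetine 1, vehicle 1 and vehicle 2. Of the pericyte and smooth muscle markers 5 of 6 were above it, and of the microglial ones 5 of 6. So were 4 of 5 oligodendrocyte markers with a probe set of 1 symbol, Mbp at 10.93 to 11.73, and 3 of 4 markers of their precursors. Array medians over all probe sets ran from 47.3 to 48.6 on the linear scale. Over the tested probe sets the array medians lay further apart, from −0.081 (fluoxetine 2) to 0.125 (vehicle 2) in log2 around their mean.

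Of the 66 channel genes, 44 (66.7%) had a geometric mean intensity of at least 50, which is 5.64 in log2, and were tested; for all genes the share was 67.3%. A probe set's brightness also depends on its probes, so intensities of different genes are not ranked against each other here. All 3 Kv3 genes, all 3 Kv4 genes, all 3 Kv beta genes and all 4 KChIP genes lay above that level. So did 5 of 7 Kv1, 2 of 3 Kv7, 4 of 6 Kcnh, 8 of 12 K2P and 7 of 11 calcium- and sodium-activated channel genes, 4 of 9 silent Kv genes (whose products alter Kv2 channels) and 1 of 5 Kcne genes.

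**Figure D1:**
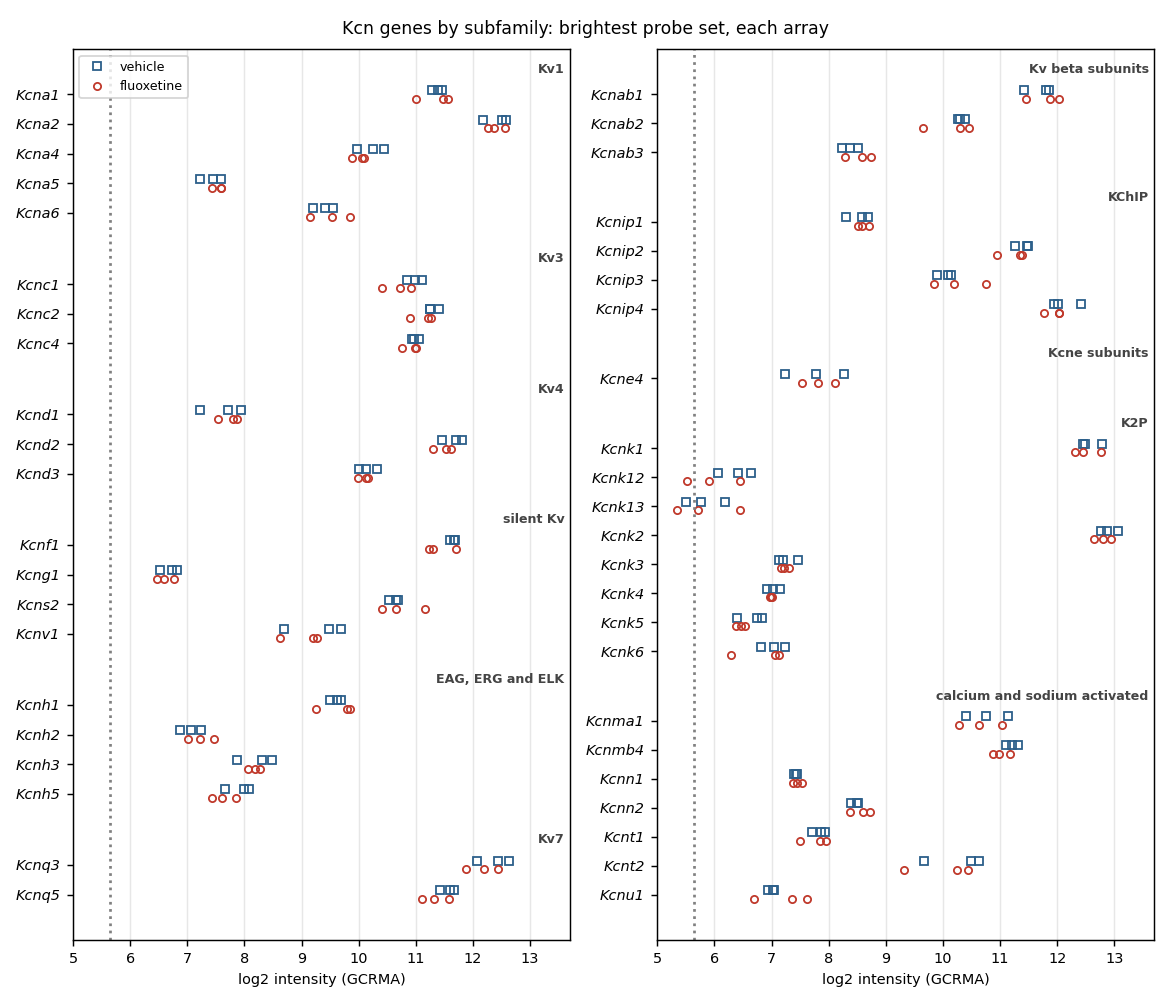
Log2 intensity of the 44 tested Kcn genes on each array, by subfamily (x axis: log2 GCRMA intensity; circles: the 3 fluoxetine arrays; squares: the 3 vehicle arrays; dotted line: an intensity of 50). The groups overlap for all 44 genes, and the arrays of 1 group spread widely for Kcnt2, Kcnk12, Kcnk13 and Kcnv1.

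Promoter sequence was looked at as a feature that the choice of members did not use. RefSeq windows (GRCm38.p6; 250 bases before to 50 after a start) matched 49 of the 66 channel genes, with 70 windows. The letters TATAAA, the TATA box, on either strand were in 1 of the 70 (1.43%), against 12.6% of 21262 windows of all protein-coding genes. The GC box letters GGGCGG, on either strand, were in 35 (50.0%) against 46.2%. They were in 22 of 48 windows of tested members and 13 of 22 of those below the level. A match is a description of these letters and no evidence that a factor binds. Shown here are Kcnc1 and Kcnmb4, each with 1 listed start and among the members with the smallest unadjusted p. The third is the single window with the letters TATAAA, of 3 listed for Kcnab1. There the letters are on the opposite strand and after the start, which is not the usual place of a TATA box. Capitals mark both motifs. The windows lie at chr7:46396218-46396517 (plus strand), chr10:116473474-116473773 (minus strand) and chr3:65187853-65188152 (plus strand).
Kcnc1: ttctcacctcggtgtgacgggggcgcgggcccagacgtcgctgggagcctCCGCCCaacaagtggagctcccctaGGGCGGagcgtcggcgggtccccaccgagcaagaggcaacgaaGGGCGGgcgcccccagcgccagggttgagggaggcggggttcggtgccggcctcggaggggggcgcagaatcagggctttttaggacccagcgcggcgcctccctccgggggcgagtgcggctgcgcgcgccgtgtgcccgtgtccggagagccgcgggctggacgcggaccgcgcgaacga
Kcnmb4: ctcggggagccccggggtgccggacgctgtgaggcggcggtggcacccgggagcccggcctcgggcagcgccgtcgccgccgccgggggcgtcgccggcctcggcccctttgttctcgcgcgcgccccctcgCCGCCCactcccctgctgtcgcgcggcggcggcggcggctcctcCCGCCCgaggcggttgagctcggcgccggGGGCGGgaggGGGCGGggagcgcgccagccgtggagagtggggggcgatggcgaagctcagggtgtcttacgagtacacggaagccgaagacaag
Kcnab1: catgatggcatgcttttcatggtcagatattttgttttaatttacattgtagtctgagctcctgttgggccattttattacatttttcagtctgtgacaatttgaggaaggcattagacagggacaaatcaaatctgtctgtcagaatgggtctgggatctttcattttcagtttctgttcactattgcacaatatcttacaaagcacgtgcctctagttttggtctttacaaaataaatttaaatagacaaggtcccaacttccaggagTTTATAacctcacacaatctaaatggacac
The Kcnc1 window held 3 GC boxes and the Kcnmb4 window 4, with GC contents of 74.7% and 79.0%, while the Kcnab1 window held none, at a GC content of 36.7%.

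The comparison asks whether prolonged fluoxetine changed the ribosome-bound RNA of these channels. None of the 44 genes passed limma's test (Benjamini-Hochberg over all 22326 tested probe sets, smallest adjusted p of the members 0.999), as 0% of probe sets passed in the whole series. None had an unadjusted p under 0.05 in limma either, where 2.66% of all tested genes did; the smallest among the members was 0.104, that of Kcnc1. Without any overlap between the 3 fluoxetine and the 3 vehicle arrays there were 0 of 44, against 8.31% of all tested genes. No member differed by 0.5 or more, and 2.06% of all genes did. Of the 44, 29 were lower and 15 higher with fluoxetine, and 68.5% of all tested genes were lower. The median difference was −0.07 for the members and −0.06 for all tested genes. With each array shifted to a common median, 23 members were lower and their median was −0.01, and after quantile normalization 24 were lower.

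A miss of the threshold does not show that levels were equal. The standard errors of the members ran from 0.11 to 0.36, with a median of 0.16, and the 95% confidence interval of the difference lay within 1 of 0 for 42 of the 44 genes but within 0.5 of 0 for only 17. The exceptions to the former were Kcnt2 (−1.11 to 0.58) and Kcnk12 (−1.01 to 0.19). For 41 of the 44 the difference was smaller than the larger of the SDs of the 2 groups, the others being Kcnc1, Kcnh5 and Kcnmb4. In bulk RNA of this kind, fewer cells that express a channel and less RNA per cell cannot be told apart.

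**Figure D2:**
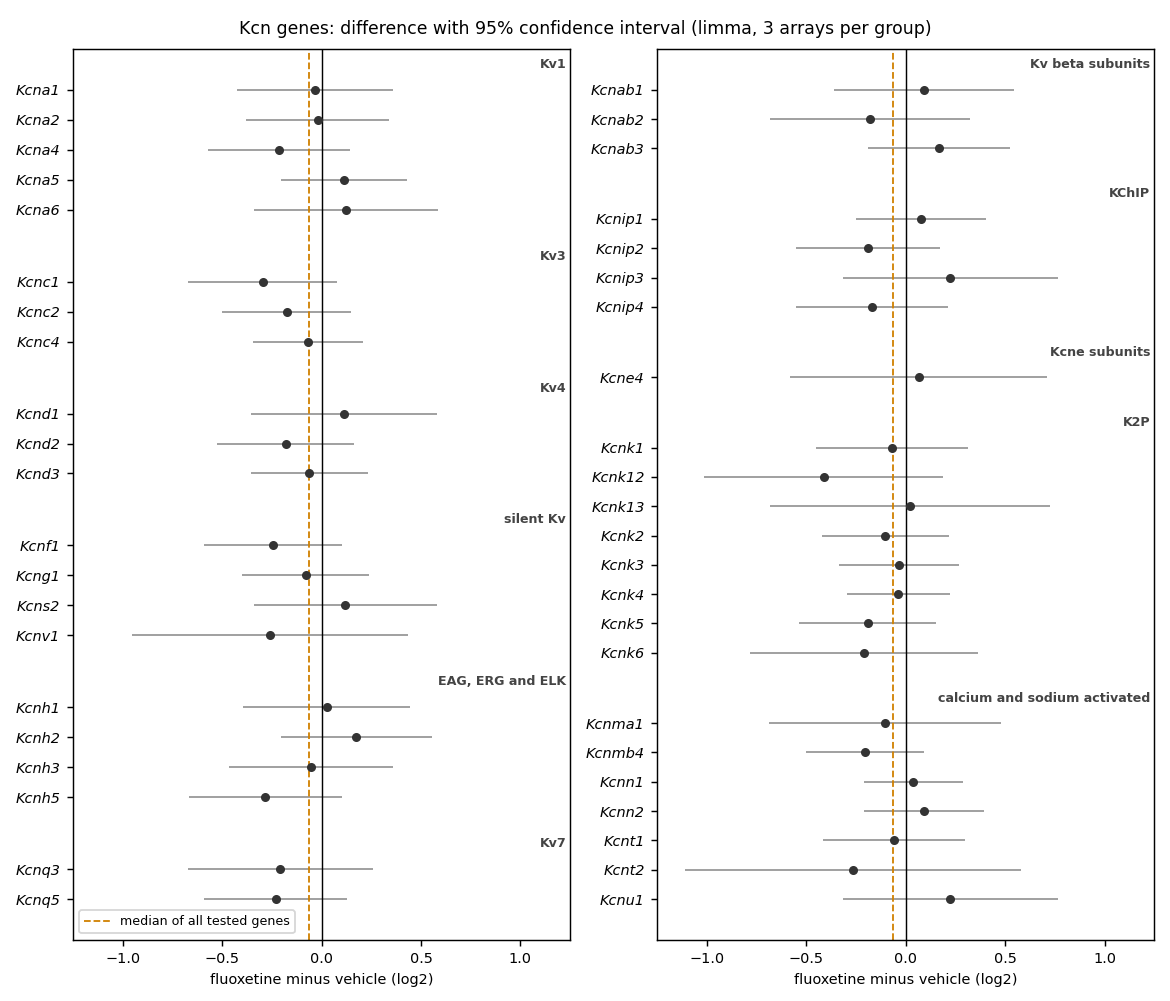
Fluoxetine minus vehicle in log2 for the 44 tested Kcn genes, by subfamily (points: limma estimate, 3 arrays per group; bars: 95% confidence interval; dashed line: median of all tested genes, −0.06). Every interval includes 0, and the 3 Kv3 and 2 Kv7 genes have estimates below it (2 of the 3 Kv3 genes after quantile normalization).

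Kv1 subunits, the low-threshold channels of axons and nodes, lay close to 0, with a median difference of −0.02 over 5 tested genes, and from −0.10 without fluoxetine 3 to 0.14 without fluoxetine 2 as single arrays were left out. Kcna2, which encodes an axonal Kv1 subunit, read 12.37, 12.26 and 12.56 with fluoxetine and 12.51, 12.58 and 12.17 with vehicle (difference −0.02 ± 0.15). Kcna1, the gene mutated in episodic ataxia with myokymia, read 11.56, 11.00 and 11.47 against 11.46, 11.38 and 11.29 (−0.03 ± 0.17). In both genes the lowest values came from 1 array of each group, fluoxetine 2 and vehicle 3, so the groups interleaved. Kcna4, which forms inactivating A-type channels, read 10.09, 9.88 and 10.06 against 10.45, 10.26 and 9.97 (−0.21 ± 0.15). Here vehicle 1 and 2 stood above the 4 other arrays. Kcna5 (0.11) and Kcna6 (0.12) were on the other side of 0, and the sign of Kcna1 and Kcna2 turned with scaling, to 0.03 and 0.04 after the shift to a common median.

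Kv3 channels open and close fast enough to support high firing rates and are best known from fast-spiking interneurons. All 3 tested Kv3 genes were lower with fluoxetine as deposited, and 2 of the 3 after quantile normalization; the median was −0.18 as deposited, −0.10 after quantile normalization and −0.11 without fluoxetine 1, and none passed. Kcnc1, which encodes Kv3.1, read 10.92, 10.40 and 10.73 with fluoxetine and 10.85, 10.98 and 11.11 with vehicle. Its difference was −0.30 ± 0.16 (95% confidence interval −0.67 to 0.08; limma unadjusted p = 0.104, the smallest among the members), a fold of 0.814. Fluoxetine 2 was the lowest array and fluoxetine 1 lay inside the vehicle range. Without fluoxetine 1 the difference was −0.41, and over the 6 ways of leaving out 1 array it stayed between −0.41 and −0.16. The 2 further tested probe sets of Kcnc1 were lower as well, by −0.21 and −0.14. Kcnc2, another Kv3 subunit of interneurons, read 10.89, 11.26 and 11.22 against 11.25, 11.41 and 11.24 (−0.18 ± 0.14), with fluoxetine 1 alone well below the rest. Kcnc4 differed by −0.07 ± 0.12. Beside these, Pvalb, the marker of fast-spiking interneurons, read 8.74, 8.89 and 8.52 against 8.90, 8.76 and 9.45 (−0.32 ± 0.20). Vehicle 3 stood apart there, with the other arrays at 8.52 to 8.90. Of the 7 inhibitory neuron markers 5 were lower, with a median of −0.14, and array means of 9.97 to 10.31 with fluoxetine and 10.19 to 10.38 with vehicle. That median was −0.32 without vehicle 1, −0.22 without vehicle 2 or fluoxetine 3, and −0.08 without fluoxetine 2, with 4 to 7 of the 7 lower as single arrays were left out. Vip differed most (−0.39 ± 0.10, limma adjusted p = 0.999), and its groups did not overlap, as for 8.31% of all tested genes. Sst differed by −0.09 ± 0.27, and the 2 higher markers were Gad1 (0.01 ± 0.14) and Gad2 (0.06 ± 0.30). The part of these markers in the Kv3 values was not tested.

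Kv4 channels carry the dendritic A-type current together with KChIP and Dpp subunits. Kcnd2 (Kv4.2), the main dendritic subunit of pyramidal neurons, read 11.29, 11.61 and 11.53 with fluoxetine and 11.71, 11.81 and 11.46 with vehicle (−0.18 ± 0.15). Fluoxetine 1 and vehicle 3 were its lowest arrays. That order was much wider on its second probe set, at 8.37, 9.68 and 10.50 against 10.53, 10.55 and 9.36, for a difference of −0.63 ± 0.56. Kcnd1 (0.11) and Kcnd3 (−0.06) lay within their standard errors of 0.

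Of the KChIP genes, whose calcium-binding products attach to Kv4, 2 were lower and 2 higher. Kcnip4 read 11.76, 12.04 and 12.04 against 12.01, 12.41 and 11.94 (−0.17 ± 0.16), and Kcnip2 read 10.94, 11.38 and 11.34 against 11.27, 11.49 and 11.47 (−0.19 ± 0.15). In Kcnip2 only fluoxetine 1 stood clear of the vehicle values. The second probe set of Kcnip2 went the other way (0.09). Kcnip3, also known as DREAM, a repressor of transcription as well as a channel subunit, stood at 10.76 in fluoxetine 1, against 9.84 to 10.19 in the remaining 5 (difference 0.22, and −0.02 without fluoxetine 1).

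Kv beta subunits, which bind Kv1 channels and can block them from inside, did not share a direction. Kcnab1 read 11.87, 11.44 and 12.02 against 11.85, 11.80 and 11.41 (0.09 ± 0.19). Kcnab3 read 8.29, 8.58 and 8.74 against 8.51, 8.24 and 8.37 (0.17 ± 0.15), was higher on both of its tested probe sets, and ran from 0.06 to 0.29 when single arrays were left out. Kcnab2 read 9.65 on fluoxetine 2 and 10.26 to 10.46 elsewhere, so its difference of −0.18 rested on that array and was 0.06 without it. Kcne4, the 1 Kcne gene above the level and an inhibitory subunit of several Kv channels, read 7.53, 8.11 and 7.82 against 7.23, 8.26 and 7.77 (0.06 ± 0.27), so that the vehicle arrays enclosed all fluoxetine values.

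The Kv7 genes for the M-current, which acetylcholine and other transmitters close through Gq-coupled receptors, were both lower. Kcnq3 read 11.87, 12.20 and 12.44 with fluoxetine and 12.43, 12.62 and 12.07 with vehicle (−0.21 ± 0.20). Kcnq5 read 11.11, 11.31 and 11.57 against 11.67, 11.60 and 11.42 (−0.23 ± 0.15; 95% confidence interval −0.59 to 0.13; limma unadjusted p = 0.170). In each gene fluoxetine 1 was lowest and fluoxetine 3 lay inside the vehicle range. The second probe sets gave −0.13 for Kcnq3 and −0.22 for Kcnq5. The Kv7 median was −0.22 as deposited and −0.16 after the shift to a common median. It was −0.09 without fluoxetine 1, −0.35 without fluoxetine 3 and −0.33 without vehicle 3.

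Among the Kcnh genes, which encode the EAG, ERG and ELK channels, 2 were lower and 2 higher. Kcnh5, an EAG channel, read 7.44, 7.6 and 7.85 against 8.0, 8.08 and 7.66 (−0.28 ± 0.16; limma unadjusted p = 0.127). Only fluoxetine 3 overlapped the vehicle values, and without vehicle 3 the difference was −0.41. Kcnh1, the other EAG gene, read 9.84, 9.25 and 9.79 against 9.63, 9.49 and 9.68 (0.03 ± 0.18). Kcnh2, the ERG channel of cardiac repolarisation, differed by 0.17. Kcnh3, an ELK channel, read 8.06, 8.19 and 8.26 against 8.31, 7.87 and 8.49 (−0.05 ± 0.17), all fluoxetine values inside the vehicle range.

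Silent Kv subunits form no channel alone but change Kv2 channels when they join them. Kcnf1 read 11.69, 11.30 and 11.23 with fluoxetine and 11.60, 11.68 and 11.67 with vehicle (−0.24 ± 0.15; limma unadjusted p = 0.140). The 3 vehicle arrays lay within 0.08 of each other, fluoxetine 2 and 3 lay below them and fluoxetine 1 above; without fluoxetine 1 the difference was −0.39. Its second probe set differed by only −0.02. Kcnv1 was lower by −0.26 ± 0.29, with fluoxetine 1 (8.62) and vehicle 3 (8.68) below 4 arrays at 9.19 to 9.70. On its second probe set the fluoxetine arrays (8.87, 8.81 and 8.76) all lay below the vehicle arrays (9.19, 9.04 and 8.93), a difference of −0.24 ± 0.12 (limma unadjusted p = 0.078). Kcns2 differed by 0.12 and Kcng1 by −0.08.

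K2P channels set the resting potential, and 7 of the 8 tested genes were lower, by a median of −0.09. Of all tested genes 68.5% were lower, with a median of −0.06. The K2P count was 6 after quantile normalization and 5 after the shift to a common median. It was 4 without vehicle 3 (median −0.04) and 5 without fluoxetine 2 (−0.02), and 8 without fluoxetine 1 (−0.20) or vehicle 1 (−0.14). Vehicle 3 was the highest array for 5 of the 8 genes. It was also the highest for all 5 tested pericyte and smooth muscle markers, of which all 5 were lower with fluoxetine (median −0.41; −0.29 without vehicle 3; limma adjusted p = 0.999 for each), with array means of 9.81 to 10.32 against 10.19 to 10.79. Their part in the K2P values was not tested. Kcnk2 encodes TREK, a leak channel opened by stretch and lipids whose current fluoxetine is known to inhibit directly. It read 12.65, 12.80 and 12.95 with fluoxetine and 12.87, 13.07 and 12.77 with vehicle (−0.10 ± 0.14; 95% confidence interval −0.42 to 0.22), with each group spanning most of the other. Kcnk1 (TWIK), read at 12.30 to 12.79 over the 6 arrays, differed by −0.07. Kcnk12, a THIK channel, had the largest difference of the 44 genes, at 5.52, 5.90 and 6.45 against 6.41, 6.63 and 6.06 (−0.41 ± 0.26; limma unadjusted p = 0.149). It was dim, its fluoxetine range was wider than the difference, and the difference ran from −0.66 to −0.20 as single arrays were left out. Kcnk5, an acid-sensitive TASK channel, read 6.47, 6.54 and 6.38 against 6.39, 6.74 and 6.83 (−0.19 ± 0.15), overlapping through vehicle 1. Kcnk13, the other THIK gene, was the member nearest above the level of 50, at intensities of 86.8, 52.2 and 40.7 with fluoxetine and 45.1, 54.3 and 72.3 with vehicle. Kcnk7 lay nearest below it, at 44.1, 44.4 and 42.7 against 43.9, 43.6 and 55.6.

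Calcium- and sodium-activated channels were split, 4 lower and 3 higher. Kcnma1, the pore of the BK channel, read 10.28, 11.04 and 10.63 against 10.39, 11.13 and 10.75 (−0.11 ± 0.25), so that each group spanned nearly the range of the other. Kcnmb4, the neuronal BK beta subunit, read 10.98, 10.87 and 11.16 against 11.11, 11.31 and 11.21 (−0.21 ± 0.13; 95% confidence interval −0.50 to 0.09). Fluoxetine 1 and 2 lay below all vehicle arrays and fluoxetine 3 inside their range. The SK channel gene Kcnn1 read 7.38, 7.45 and 7.54 against 7.44, 7.44 and 7.38 (0.04 ± 0.11), and Kcnn2 differed by 0.09 ± 0.13. Of the sodium-activated Slack and Slick genes, Kcnt1 read 7.96, 7.5 and 7.86 against 7.7, 7.86 and 7.93 (−0.06 ± 0.15), with fluoxetine 2 lowest. Kcnt2 read 9.31 on fluoxetine 1, 9.66 on vehicle 3 and 10.24 to 10.64 on the 4 others (−0.27 ± 0.36). Kcnu1, the pH-gated channel known from sperm, was above the level at 6.70 to 7.62 and differed by 0.22 ± 0.23, with 3 vehicle arrays at 6.94 to 7.05 between the fluoxetine values.

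By role, 25 of the 35 tested pore-forming subunits were lower (median −0.07), and 4 of the 9 tested auxiliary subunits (Kv beta, KChIP, Kcne and the BK beta subunit; median 0.06). Of all tested genes 68.5% were lower (median −0.06), and whether the roles differ was not tested. The pore-forming median was −0.01 without fluoxetine 2, −0.04 without vehicle 2 and −0.12 without vehicle 1. The auxiliary median was −0.20 without vehicle 1 and 0.10 without vehicle 2, so single arrays decided its sign. Proteins that bind these channels without a Kcn name were taken as a list of 23 genes, of which 18 were tested; 15 were lower, with a median of −0.09. After the shift to a common median 11 were lower (−0.03), and without vehicle 2 also 11 (−0.06). The median was −0.06 without fluoxetine 2 as well. None passed or had an unadjusted p under 0.05. The smallest unadjusted p belonged to Adam23, an Lgi1 receptor (10.90, 10.83 and 10.93 against 10.96, 11.08 and 11.09; −0.16 ± 0.11), whose groups did not overlap; it was 1 of 18 such genes in the list, where 8.31% of all tested genes were so. Next came Ank3, the ankyrin that anchors Kv7 at the axon initial segment (−0.31 ± 0.21), Amigo1, a Kv2 partner (−0.17 ± 0.14), and Dlg1, a scaffold that binds Kv1 tails (−0.12 ± 0.11). The Kv4 partners Dpp6 (−0.07) and Dpp10 (−0.12) lay within their standard errors of 0.

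The members varied between arrays of 1 group. The median range over the 3 arrays was 0.45 within fluoxetine and 0.34 within vehicle, and the median absolute difference between group means was 0.12; a range of single arrays is wider than a difference of means by construction. Fluoxetine 2 was the lowest array for 16 of the 44 genes and the highest for 0, where over all tested genes it was lowest for 32.2% and highest for 9.14%. Vehicle 2 was the highest for 17 genes (38.6%), and for 31.2% of all tested genes. Fluoxetine 1 went both ways, lowest for 13 members (29.5%) and highest for 9 (20.5%), against 16.9% and 25.6% of all tested genes. Its deviations from the other arrays had an interquartile range of 0.50 for the members and 0.33 for all tested genes. Without fluoxetine 2 the member median was −0.01 and 23 genes were lower; without fluoxetine 1 these were −0.06 and 30. Without vehicle 1 the median was −0.12, and without vehicle 2 it was −0.04.

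Members also fell into sets with the same lowest arrays, seen after the values were known. Fluoxetine 2 and vehicle 1 were the lowest pair for 12 genes (27.3%; 13.2% of all tested genes), among them Kcnab2, Kcnip3, Kcna6 and Kcnd1. Fluoxetine 1 and vehicle 3 were so for 7 genes (15.9%; 9.65% of all): Kcnd2, Kcnip4, Kcnk2, Kcnn1, Kcnq3, Kcnt2 and Kcnv1. The nuclear RNA Malat1 had its lowest values on those arrays as well (6.85 on fluoxetine 1 and 6.99 on vehicle 3, against 8.85 to 9.85), as did Meg3 (7.04 and 6.84, against 7.84 to 8.21) and Snhg11 (7.46 and 7.6, against 7.63 to 8.35). The other 3 tested of the list, Miat, Neat1 and Rian, had other lowest pairs. Of the whole list of 7 nuclear and non-coding RNAs, Mirg was below the level, and the 6 tested had array means of 7.19 and 7.29 there and 7.79 to 8.03 on the others. Without Malat1 and Meg3 the means were 7.31 and 7.48 there and 7.33 to 7.73 on the others. Astrocyte markers averaged 11.49, 9.66 and 10.82 with fluoxetine and 9.85 to 10.06 with vehicle, being highest on fluoxetine 1 and lowest on fluoxetine 2. Gfap moved most (12.13, 4.49 and 9.02 against 4.7, 5.24 and 5.67) and passed the level through fluoxetine 1 and 3. Without it the means were 11.39, 10.52 and 11.13 against 10.71 to 10.86. Of the 7 astrocyte markers 5 were higher with fluoxetine, with a median of 0.21, and −0.10 with 4 lower without fluoxetine 1. Aqp4 differed by 0.66 ± 0.52, while Gja1 (−0.15) and Slc1a3 (−0.02) had differences below 0. Sox9 read 8.89, 8.74 and 8.68 against 8.17, 8.16 and 8.23 (0.58 ± 0.11, limma adjusted p = 0.999). Its groups did not overlap, as for 8.31% of all tested genes. The part of either list in the channel values was not tested. Both pairs hold 1 array of each group, so these sets do not separate fluoxetine from vehicle.

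**Figure D3:**
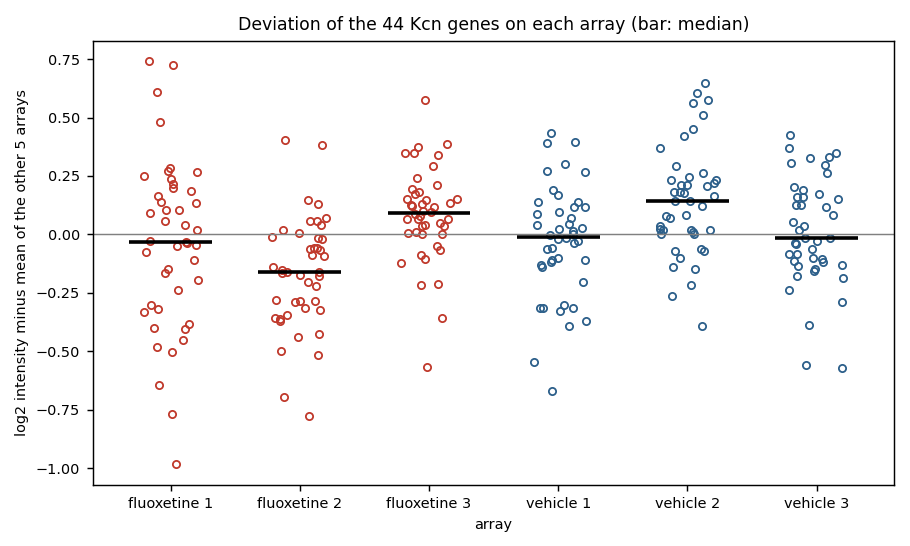
Deviation of each of the 44 tested Kcn genes on each array from the mean of the other 5 arrays, in log2 (x axis: array; black bar: median over genes). The medians are −0.16 on fluoxetine 2 and 0.14 on vehicle 2, and fluoxetine 1 has the widest spread.

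Beyond the brightest probe set, 33 further ones of the channel genes were tested, 77 in all, 50 of them lower. None of the 77 had an unadjusted p under 0.05 in limma. The groups did not overlap for 2 of the 77, against 8.05% of all tested probe sets: the second of Kcnv1, given above, and the third of Kcnt1 (6.38, 6.31 and 6.32 against 6.29, 6.28 and 6.28; difference 0.05). Of 25 genes with several tested probe sets, 17 had them all on 1 side of 0. The other 8 had both signs. In these the brightest and the most opposed probe set gave −0.21 and 0.08 for Kcna4, −0.19 and 0.09 for Kcnip2, −0.05 and 0.11 for Kcnh3, and 0.03 and −0.11 for Kcnh1. The same pair was −0.03 and 0.05 for Kcna1, −0.02 and 0.01 for Kcna2, 0.04 and −0.02 for Kcnn1, and −0.06 and 0.05 for Kcnt1. Probe sets of 1 gene could differ widely in intensity, as in Kcna2 with means of 12.41, 9.84, 5.59 and 2.25, which shows why levels of different genes were not set against each other.

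**Figure D4:**
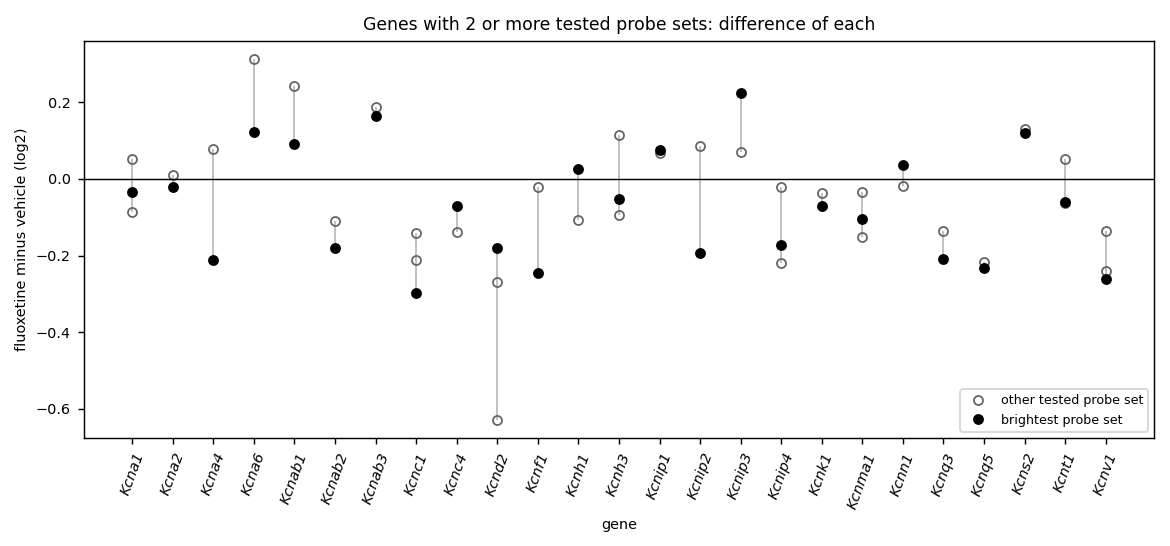
Fluoxetine minus vehicle in log2 for every tested probe set of the 25 Kcn genes that have 2 or more (filled: brightest probe set; open: others). Kcnc1, Kcnq5 and Kcnv1 have all probe sets below 0, and Kcnd2 has the widest range, −0.63 to −0.18.

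The 22 channel genes below the level were Kcna3, Kcna7, Kcne1, Kcne1l, Kcne2, Kcne3, Kcng2, Kcng4, Kcnh7, Kcnh8, Kcnk7, Kcnk10, Kcnk15, Kcnk16, Kcnmb1, Kcnmb2, Kcnn3, Kcnn4, Kcnq1, Kcns1, Kcns3 and Kcnv2. Several are known mainly outside the cortex, such as Kcnq1 of heart and epithelia and Kcnmb1 of smooth muscle. Kcnh7, an ERG channel, named here after its values were seen, read 3.96, 3.63 and 4.0 with fluoxetine and 4.75, 4.28 and 5.20 with vehicle. The groups did not overlap, and in the fit without the filter its difference was −0.88 (limma unadjusted p = 0.016, adjusted p = 0.742). In that fit 6 of the 66 channel genes (9.09%) had groups without overlap, and 16.6% of all genes did. The other 5, Kcnn3, Kcnk15, Kcnmb1, Kcne1l and Kcnv2, were higher with fluoxetine, by 0.06 to 0.11. The Kcnh7 values are intensities of about 12.4 to 36.8, where GCRMA values approach their floor. Of the non-coding members, Kcnq1ot1, which silences imprinted neighbours of Kcnq1, was below the level on all 6 of its probe sets, Kcnmb4os1 was below it too, and Kcnmb4os2 differed by −0.10 ± 0.23.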

How the data were processed

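The deposited table holds 1 column of intensity on a linear scale per array, normalized by the authors with GCRMA per the submitters' processing notes (no version is named there). That method models background from probe sequence, makes arrays alike and squeezes low values towards a floor. Of 45101 probe sets, 64 array controls were left out. Genes were named from a platform annotation; all 69 members matched the RefSeq table (GRCm38.p6, names, biotypes and promoters only) with 0 symbols changed.

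Values were taken to log2 without an offset. The 22326 probe sets (49.6%) with a geometric mean of at least 50 entered a linear model without a block in limma 3.58.1 (R 4.3.3), with moderated two-sided tests by lmFit and eBayes. P-values were adjusted over all of them by Benjamini-Hochberg and called at 0.05; intervals are 95% and moderated. Lists were described by counts and medians only. The fit was tested on simulated data.

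Genes with a value for every array are the one with the brightest probe set in each subfamily (brightness served only to pick it), the 12 with the smallest unadjusted p, those with non-overlapping groups, those whose probe sets differ in sign and those nearest the level of 50; a few others were named after their values were seen. Members and lists were chosen with earlier results of these data known. The alternatives are those of the closing section.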

Additional observations from a re-analysis of the deposited data

How the results depend on the processing

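No alternative gave a call: the count past the threshold stayed at 0 for all probe sets and for the Kcn genes in limma under each setting tried, also at a threshold of 0.10. The count of Kcn genes with an unadjusted p under 0.05 was 1 without the filter on low values (Kcnh7; 1.52% of the channel genes and 5.41% of all genes) and 0 to 2 when 1 array was left out (0 to 4.55%, against 1.31 to 5.79% of all genes): Kcnc1 and Kcnf1 without fluoxetine 1, Kcnu1 without fluoxetine 2, Kcnk12 without fluoxetine 3, Kcnk5 without vehicle 1, and Kcnv1 and Kcnh5 without vehicle 3. The count with non-overlapping groups was 6 without the filter (9.09%; all genes 16.6%), 1 after the shift to a common median (Kcna5, 2.27%; all genes 6.59%), 1 with a gene's probe sets averaged (Kcnab3, 2.27%; all genes 7.89%), and 1 to 7 with 1 array left out (2.27 to 15.9%; all genes 12.9 to 22.1%), where fewer arrays overlap less often by construction. In these settings the share of non-overlapping channel genes was below that of all genes. The median difference ran from −0.075 without _x_at and _s_at probe sets to −0.0043 after quantile normalization, and from −0.12 to −0.0086 with 1 array left out. With the replicate number as a block, the median was −0.066 and 29 of 44 genes were lower, as without it. With equal numbers of arrays a block cannot change a difference of means, so only standard errors and p-values could move. Deviations from the group means correlated at −0.25, −0.027 and −0.50 between same-numbered arrays, and at −0.27 to 0.43 between the others. Such deviations cancel out within a group, so these values cannot decide whether a shared number marks a pair.

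Of the 24 named genes tested, 6 changed sign in 9 of 285 values: Kcna1 (0.047) and Kcna2 (0.051) after quantile normalization; Kcna1 (0.027), Kcna2 (0.040), Kcnh3 (0.0067) and Kcnt1 (0.0014) after the shift to a common median; Kcna2 (0.0022) and Kcnk13 (−0.076) with array weights; and Kcnh1 (−0.041) with probe sets averaged. The other filters on intensity, the replicate block and the other variance models leave a gene's difference as it is. Their share of the 285 values could not change sign, so 9 of 285 understates how far signs depend on the processing. With 1 array left out, 9 of the 24 named genes changed sign in 19 of 144 values. The ranges were −0.14 to 0.14 for Kcna1, −0.15 to 0.062 for Kcna2, −0.046 to 0.26 for Kcnab1, −0.20 to 0.32 for Kcne4, −0.081 to 0.21 for Kcnh1, −0.23 to 0.078 for Kcnh3, −0.28 to 0.26 for Kcnk13, −0.0050 to 0.077 for Kcnn1 and −0.15 to 0.076 for Kcnt1. Kcnk7 was not tested, and no scanner files were used here. The distance to background limits Kcnk12, Kcnk13 and Kcnk5, which lay closest to the floor.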
